A study of Mus musculus with 8 samples.

Results

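Interferon response and MHC class I presentation were followed through 43 genes in mature oligodendrocytes, the myelin-forming cells of the central nervous system, from mice with and without microglia. The genes were listed by what they do, with earlier results of these data known. They comprised 4 interferon receptor chains, 6 transcription regulators, 4 MHC class I chains and 3 peptide loading genes. The others were 5 genes of the immunoproteasome and its activator and 21 interferon-stimulated effectors. All 43 were among the 18833 genes of the deposited matrix. Cells of 4 mice were profiled by single-cell RNA sequencing, 2 *Fire*+/+ (labelled WT, with numbers 1 and 4) and 2 *Fire*Δ/Δ (labelled KO, with numbers 3 and 6). Hippocampus and cortex were taken from each, giving 8 libraries of 904 to 2784 oligodendrocytes, 12581 in all. The mice were females on a mixed CBA:C57Bl6J background, and the wild-type controls came from crosses of heterozygous animals. The age was 1 month and 18 days for mice 1 and 3, and 16 days past 1 month for mice 4 and 6. *Fire*Δ/Δ mice lack an intronic enhancer of *Csf1r* in every cell, oligodendrocytes included, and have no microglia, whereas other macrophages of the brain persist. The tissue labelled cortex was what remained of the left hemisphere without the hippocampus. Each of the batches numbered 3 to 6 held 1 tissue of 1 *Fire*+/+ and 1 *Fire*Δ/Δ mouse of the same age.

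Type I interferons bind the receptor of IFNAR1 and IFNAR2, and interferon-γ binds that of IFNGR1 and IFNGR2. Janus kinases at these receptors activate STAT proteins. A complex with STAT2 and IRF9 then switches on interferon-stimulated genes through the interferon-stimulated response element (ISRE), and interferon-γ acts through the gamma-activated site (GAS). MHC class I molecules, made of a heavy chain and β2-microglobulin, display peptides that the proteasome cuts and TAP carries into the endoplasmic reticulum. In the healthy brain, neural cells express little of this machinery, and interferons raise it.

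Transcripts were counted as unique molecular identifiers (UMIs). The level of a gene is given as its UMIs per 100000 UMIs of all genes in a library or cluster, and values for 8 libraries are in the order hippocampus and cortex of mouse 1, then of mouse 4, for *Fire*+/+, and of mouse 3, then of mouse 6, for *Fire*Δ/Δ. Libraries had a median of 9377 to 13725.5 UMIs per cell. The oligodendrocyte markers *Mog*, *Mag* and *Mbp* were abundant in every library, *Mog* at 184.3 to 195.5 in *Fire*+/+ and 182.7 to 200.2 in *Fire*Δ/Δ libraries. *Csf1r* was found at 0.516 to 1.14 in *Fire*+/+ libraries and at 0 to 0.0140 in *Fire*Δ/Δ libraries. The summed level of 14 microglial genes was 5.01 to 13.5 in *Fire*+/+ and 0.129 to 0.402 in *Fire*Δ/Δ libraries, so that microglial RNA was present among the *Fire*+/+ oligodendrocytes. All deposited cells were oligodendrocytes, so no share below could be set beside that of a cell type lacking the gene. Markers of other cell types were found in many of them. The astrocyte marker *Slc1a2* had a UMI in 35.9% to 60.0% of cells per library, and the erythrocyte marker *Hbb-bs* in 11.1% to 45.9%. The summed level of 6 astrocyte markers was 22.2 to 27.2 in *Fire*+/+ and 17.8 to 26.3 in *Fire*Δ/Δ libraries. A share of 5% or more is thus no proof that oligodendrocytes themselves express a gene. There were 21 cell barcodes that occurred in more than 1 library, which concerned 42 cells.

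Of the 43 genes, 15 are called well detected, since on average over the libraries 5% of cells or more held a UMI. Another 9 were found in 1% to 5% of cells (sparse) and 19 in under 1% (near-absent). The pathway was therefore seen unevenly along its length. All 4 receptor chains were well detected, as were 2 of 6 transcription regulators, 2 of 4 class I chains, 1 of 3 peptide loading genes and 3 of 5 immunoproteasome and activator genes, but only 3 of 21 effectors. The detected effectors were *Ifi27*, which encodes a mitochondrial protein, with a UMI in 56.2% of cells, the pro-apoptotic *Xaf1* with 44.4% and the RNA-binding antiviral *Ifit2* with 9.16%. Among effectors known as sensitive markers of an interferon response, *Ifit3* had a UMI in 0.427% of cells, *Rsad2* in 0.490%, *Usp18* in 0.410%, *Oasl2* in 0.247%, *Ifit1* in 0.233% and *Isg15* in 0.135%. The sparse effectors were *Trim25* (2.12%) and *Eif2ak2* (2.10%), which encode a ubiquitin ligase of RNA sensing and the kinase PKR, with *Rnf213*, *Bst2* and *Ifi35* at 1.19% to 1.61%. *Lgals3bp*, *Ifitm3*, *Samd9l*, *Ifih1*, *Dtx3l*, *Parp14* and *Sp100* were near-absent at 0.151% to 0.767%. At 5000 UMIs drawn from every cell, 13 genes were well detected, 4 sparse and 26 near-absent.

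**Figure D1:**
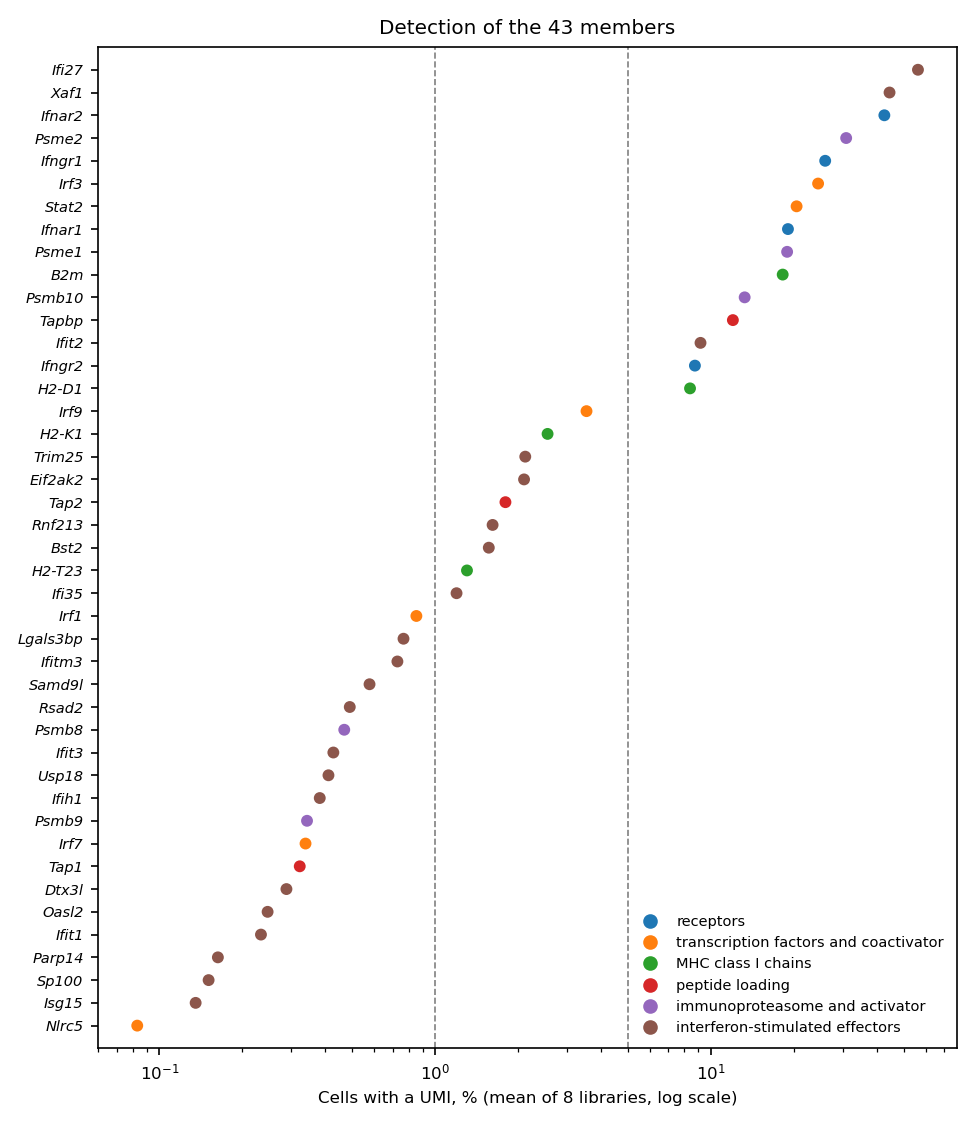
Share of oligodendrocytes with a UMI of each of the 43 genes (x axis, percent on a log scale, mean of 8 libraries), coloured by role, with dashed lines at 1% and 5%. Receptors all lie right of 5%, whereas most interferon-stimulated effectors lie left of 1%, the lowest gene being *Nlrc5* at 0.0831%.

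Of the interferon genes themselves, 1 of 12 listed was in the matrix, *Ifnk*, with 29 UMIs in all, and none of these in *Fire*Δ/Δ cells. Of 38 further interferon-stimulated genes in the matrix, 1 was well detected, 5 were sparse and 32 were near-absent. MHC class II genes, which professional antigen-presenting cells use, were near-absent for 7 of 8 genes, and *H2-DMa* was sparse. By contrast, all 12 genes of the standard proteasome and its other activators were well detected.

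Promoter sequence was read from RefSeq (GRCm38.p6) for 38 of the 43 genes, over 250 bases before to 50 bases after the start of the gene. *Nlrc5*, *Tap2*, *Usp18*, *Ifi27* and *Parp14* had no entry. The ISRE-like motif searched was GAAA, 2 bases of any kind and GAAA again, which reads TTTC, 2 bases and TTTC on the other strand, and both strands were searched. It was found for 12 of the 38 genes (31.6%), compared with 3.99% of 27025 genes with a promoter in the same table. The GAS letters TTCNNNGAA, which read the same on both strands, were found for 9 of the 38 (23.7%), compared with 9.55% of all genes. A match to the ISRE-like motif was found for 3 of 14 well detected, 3 of 8 sparse and 6 of 16 near-absent genes. *H2-D1*, *H2-K1*, *Irf9* and *Xaf1* had neither motif in this window. The windows used RefSeq starts, and for *H2-T23* these differed from GENCODE. Its ISRE-like match lay 114 to 124 bases before the RefSeq start. GENCODE places the gene at chr17:36029773-36032855 on the minus strand, so the stretch at chr17:36032796-36032845 lies inside it. Whether this match precedes the start of *H2-T23* thus depends on the annotation. The sequences below show the ISRE-like match in capitals for 3 genes whose levels are compared between genotypes below and for 3 sparse or near-absent effectors described per cell below, each written 5′ to 3′ along the strand of the gene.
*B2m* (chr2:122147528-122147577, plus strand): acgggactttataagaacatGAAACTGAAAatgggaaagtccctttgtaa
*H2-T23* (chr17:36032796-36032845, minus strand): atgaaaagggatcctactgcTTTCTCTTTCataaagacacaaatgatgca
*Stat2* (chr10:128270256-128270305, plus strand): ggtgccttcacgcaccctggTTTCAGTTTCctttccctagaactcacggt
*Ifit3* (chr19:34583353-34583402, plus strand): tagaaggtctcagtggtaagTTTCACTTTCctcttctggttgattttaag
*Isg15* (chr4:156200861-156200910, minus strand): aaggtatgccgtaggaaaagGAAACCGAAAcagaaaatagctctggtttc
*Bst2* (chr8:71537567-71537616, minus strand): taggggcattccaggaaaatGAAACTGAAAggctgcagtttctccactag

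The first comparison asked how oligodendrocytes differed between genotypes, with the mouse as the replicate. The class I heavy chains *H2-D1*, *H2-K1* and *H2-T23* were higher in *Fire*Δ/Δ mice and did not overlap between the 4 libraries of each genotype, *Ifi27* behaved likewise, and the receptors and the proteasome genes were at similar levels. None of the 15 well detected genes passed limma's test adjusted over 9257 genes, in which 5 genes passed (0.054%). Unadjusted p was under 0.05 for 2 of the 15, *H2-D1* and *Ifi27*, and for 187 of 9257 genes (2.02%). edgeR also called 0 of the 15 (8 of all genes, 0.0864%), and DESeq2 called 1, *H2-D1* (49 of all genes, 0.529%). With mice of the same age as a block limma called the same gene, and 28 of all genes (0.302%). The median difference of the 15 in mean log2 value was 0.0084 (*Fire*Δ/Δ minus *Fire*+/+), with 11 above 0, beside a median of 0.0013 over all genes tested.

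All receptor chains were present in both genotypes at like levels. *Ifnar2* had a level of 5.14, 5.18, 4.49 and 4.09 in *Fire*+/+ and of 5.38, 5.58, 4.70 and 4.92 in *Fire*Δ/Δ libraries. The genotypes overlapped, and the *Fire*Δ/Δ library was the higher in each of the 4 batches, by 1.05- to 1.203-fold. Its difference in mean log2 value was 0.029 with a 95% interval of -0.057 to 0.12 (limma, n = 2 mice per genotype, adjusted p = 1.00). For *Ifnar1*, *Ifngr1* and *Ifngr2* the ratio of mean levels was 1.02, 0.982 and 0.990. None of them passed the test (limma, adjusted p = 1.00 each), and the widest of their intervals was that of *Ifngr1*, from -0.058 to 0.050.

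Among transcription regulators, *Stat2* and *Irf9*, which form the factor that binds the ISRE, were higher in *Fire*Δ/Δ libraries within every batch but overlapped across batches. *Stat2* had a level of 2.02, 2.15, 1.66 and 1.79 in *Fire*+/+ and 2.73, 2.41, 1.96 and 1.97 in *Fire*Δ/Δ libraries. The means were 1.90 ± 0.254 and 2.27 ± 0.426 (SD, n = 2 mice each), a ratio of 1.19, and the limma difference was 0.029 (SE 0.022, adjusted p = 1.00). *Irf9*, sparse and so not tested, stood at 0.185, 0.148, 0.366 and 0.352 against 0.442, 0.271, 0.613 and 0.516, a ratio of 1.75. Mice 4 and 6 were both above mice 1 and 3 of their genotype for *Irf9*, in either tissue, and both below them for *Stat2*. *Irf3*, the factor that induces type I interferon, had a level of 2.19, 2.19, 2.17 and 2.80 in *Fire*+/+ and 2.19, 2.28, 2.48 and 2.88 in *Fire*Δ/Δ libraries, with the cortex of mice 4 and 6 highest. *Irf1*, *Irf7* and the class I coactivator *Nlrc5* were near-absent, with 122, 60 and 11 UMIs in all. None of the 11 *Nlrc5* UMIs came from *Fire*+/+ cells, and the highest *Fire*Δ/Δ library reached 0.0187.

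The class I heavy chain *H2-D1* (ENSMUSG00000073411, chr17:35262730-35267499 of GRCm38, plus strand) showed the clearest difference. Its level was 0.683, 0.941, 1.60 and 0.799 in *Fire*+/+ libraries and 2.55, 2.62, 4.02 and 3.98 in *Fire*Δ/Δ libraries. The lowest *Fire*Δ/Δ library was above the highest *Fire*+/+ library, and within batches 3 to 6 the ratio was 3.73, 2.78, 2.51 and 4.98. The means were 1.01 ± 0.274 and 3.29 ± 0.999 (SD, n = 2 mice), a 3.27-fold difference. The difference in mean log2 value was 0.097 (SE 0.015, 95% interval 0.060 to 0.13), with adjusted p = 0.292 in limma (unadjusted 0.000568). With mice of the same age as a block the adjusted p was 0.0189, and DESeq2 on UMI sums gave 3.09e-08, while edgeR gave 0.246 for a log2 fold change of 1.70. Leaving out any 1 mouse left a lone mouse in its genotype, assumed to vary like the others, so no p-value of those fits is given.

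The share of cells with an *H2-D1* UMI was 3.71% to 6.21% in *Fire*+/+ and 9.31% to 13.3% in *Fire*Δ/Δ libraries. More cells therefore carried the transcript, and they still made up a minority. In cells without any microglial UMI the difference in mean log2 value was 0.098. The summed level of 5 endothelial markers was 0.473, 2.11, 1.05 and 2.55 in *Fire*+/+ and 2.53, 2.29, 2.59 and 2.41 in *Fire*Δ/Δ libraries, and their part in the *H2-D1* difference was not tested. T cell markers had summed levels of 0.00783 to 0.158 and 0.00832 to 0.149, and erythrocyte markers of 3.16 to 99.4 and 8.23 to 87.8. In mean log2 value, however, all 3 tested erythrocyte markers were higher in *Fire*Δ/Δ with an unadjusted limma p under 0.05, *Hbb-bs* by 0.11 (adjusted p = 1.00), and their part was not tested either. *H2-D1* belongs to a family of near-identical genes that varies between mouse strains, so its UMIs could be divided with other family members. The MHC haplotype of each mouse on this mixed background is not given in the sources used here and could differ between mice and genotypes, so the levels of *H2-D1*, *H2-K1* and *H2-T23* are uncertain to that extent.

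*H2-K1* and *H2-T23* were also higher in *Fire*Δ/Δ libraries. *H2-K1* (chr17:33996017-34000347, minus strand), a classical heavy chain, had a level of 0.228, 0.154, 0.258 and 0.219 in *Fire*+/+ and 0.323, 0.577, 0.556 and 0.657 in *Fire*Δ/Δ libraries, a 2.46-fold difference of means. The non-classical *H2-T23* (chr17:36029773-36032855, minus strand), which presents leader peptides to natural killer receptors, had 0.0902, 0.0770, 0.115 and 0.102 against 0.119, 0.339, 0.234 and 0.466, a 3.02-fold difference. Neither overlapped between genotypes, but the lowest *Fire*Δ/Δ value of *H2-T23* lay just above the highest *Fire*+/+ value. Both were sparse and not tested in the main comparison. Other class I heavy chain genes shared this direction in part. *H2-Q4* did not overlap either, at 0.0730 to 0.107 in *Fire*+/+ and 0.136 to 0.166 in *Fire*Δ/Δ libraries. It was sparse, untested and open to the same haplotype uncertainty. *H2-T22* stood at 0.159 to 0.251 in *Fire*+/+ and 0.238 to 0.291 in *Fire*Δ/Δ libraries. It overlapped across batches but was higher in *Fire*Δ/Δ within every batch. The near-absent *H2-T24*, at 0 to 0.0705 and 0.00679 to 0.0374, and *H2-M3*, at 0 to 0.0118 and 0 to 0.00468, overlapped without a shared direction. In a limma fit of all 18833 genes the unadjusted p of *H2-K1* and *H2-T23* was 0.00702 and 0.00768, and adjusted p was 0.590 and 0.597.

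*B2m* (chr2:122147686-122153083, plus strand), which encodes β2-microglobulin, did not follow the heavy chains in every mouse. Its level was 2.08, 1.91, 2.37 and 2.12 in *Fire*+/+ libraries and 1.70, 2.33, 3.93 and 3.70 in *Fire*Δ/Δ libraries. Both libraries of *Fire*Δ/Δ mouse 6 were above all others, and the hippocampus of *Fire*Δ/Δ mouse 3 was the lowest of the 8. Within batches 3 to 6 the ratio was 0.815, 1.22, 1.65 and 1.74. The difference of 0.020 in mean log2 value (SE 0.032) did not pass limma's test (adjusted p = 1.00), and without mouse 6 it turned to -0.029.

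**Figure D2:**
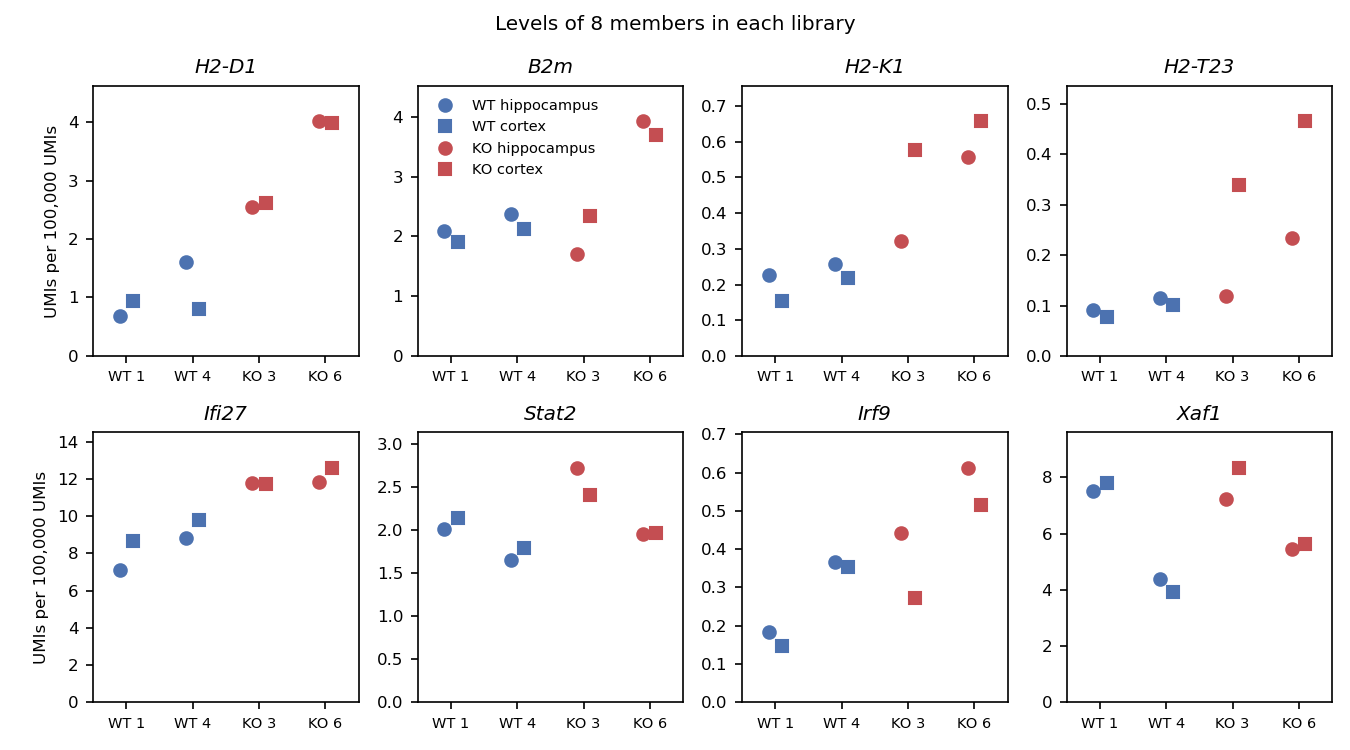
Levels of 8 genes, in UMIs per 100000 UMIs (y axis, starting at 0), in each of 8 libraries. Mice are along the x axis, blue is *Fire*+/+ (WT) and red *Fire*Δ/Δ (KO), with circles for hippocampus and squares for cortex. The genotypes separate for *H2-D1*, *H2-K1*, *H2-T23* and *Ifi27* and overlap for *B2m*, *Stat2*, *Irf9* and *Xaf1*.

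Peptide loading and proteasome genes showed no comparable difference. *Tapbp*, which encodes tapasin, the bridge between class I and TAP, had means of 1.13 ± 0.0604 and 1.12 ± 0.137 (SD, n = 2). The transporter genes *Tap1* and *Tap2* had ratios of 1.13 and 0.916, at levels under 0.21 in every library. The immunoproteasome subunit *Psmb10* had a ratio of 1.10 and was higher in *Fire*Δ/Δ in all 4 batches. The other immunoproteasome subunits, *Psmb8* and *Psmb9*, were near-absent, with 97 and 44 UMIs in all.

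The proteasome activator genes *Psme1* and *Psme2* differed from one another in direction. *Psme1* had 2.84, 2.27, 1.59 and 1.61 in *Fire*+/+ against 2.23, 1.53, 1.98 and 1.49 in *Fire*Δ/Δ libraries. *Psme2* had 3.64, 3.11, 2.83 and 2.35 against 3.85, 3.43, 3.11 and 2.88, and was the higher in *Fire*Δ/Δ in all 4 batches. Neither passed the test (adjusted p = 1.00 each, limma). Without *Fire*+/+ mouse 1 the difference of *Psme1* changed from -0.023 to 0.012.

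Among effectors, *Ifi27* (chr12:103434211-103440239, plus strand) had a level of 7.12, 8.66, 8.82 and 9.80 in *Fire*+/+ and 11.8, 11.7, 11.8 and 12.6 in *Fire*Δ/Δ libraries. All 4 *Fire*Δ/Δ libraries were above all *Fire*+/+ libraries, by 1.66-, 1.35-, 1.34- and 1.29-fold within batches 3 to 6. The means of 8.60 ± 1.00 and 11.98 ± 0.326 (SD, n = 2) gave a ratio of 1.39. The log2 difference of 0.16 (SE 0.046) did not pass limma's test (adjusted p = 1.00, unadjusted 0.0123). *Xaf1* had 7.51, 7.82, 4.40 and 3.94 in *Fire*+/+ and 7.22, 8.35, 5.44 and 5.62 in *Fire*Δ/Δ libraries. Mice 4 and 6 were below mice 1 and 3 in both tissues, and since they also differ in age and batch, these cannot be told apart. *Ifit2* had 0.791, 0.811, 0.990 and 0.885 in *Fire*+/+ and 0.837, 1.10, 0.701 and 1.25 in *Fire*Δ/Δ libraries. Its means were 0.869 ± 0.0966 and 0.971 ± 0.00491, with the *Fire*Δ/Δ library higher in 3 of 4 batches. The small SD in *Fire*Δ/Δ arose from averaging both tissues of a mouse, since cortex lay well above hippocampus in each.

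**Figure D3:**
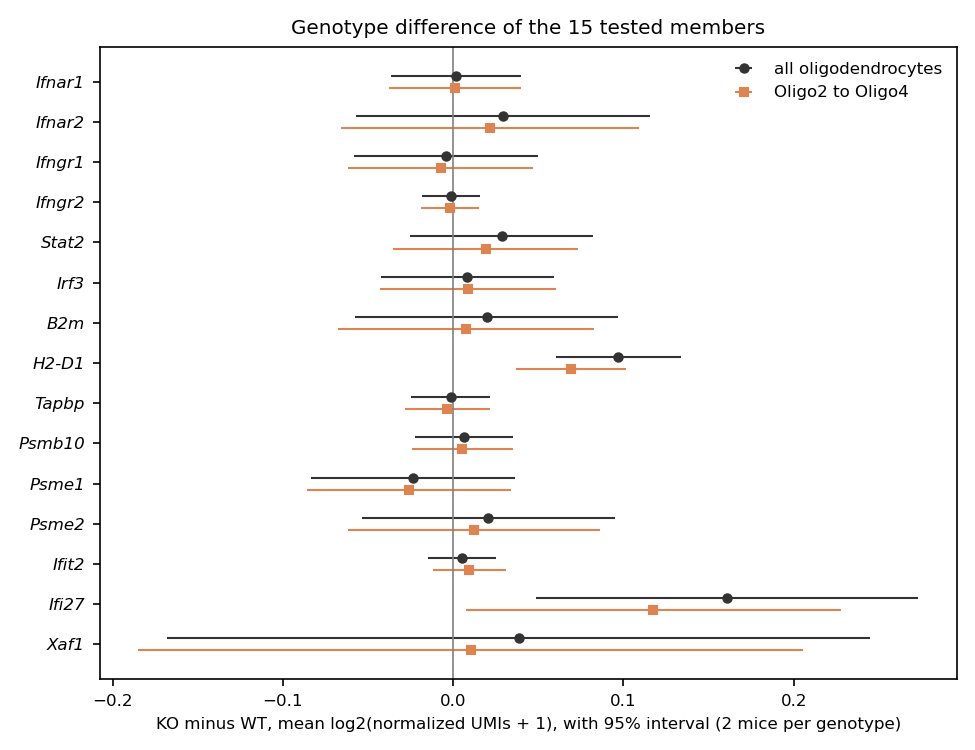
Difference between genotypes in mean log2(normalized UMIs + 1) for the 15 well detected genes, *Fire*Δ/Δ (KO) minus *Fire*+/+ (WT), as points with 95% limma intervals from 2 mice per genotype, over all oligodendrocytes (black) and over Oligo2 to Oligo4 (orange). The intervals of *H2-D1* and *Ifi27* lie above 0, and those of the other 13 genes cross it.

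Counted by libraries, 2 of 15 well detected genes were higher in *Fire*Δ/Δ without overlap (3.02% of all well detected genes were), 2 of 9 sparse genes (3.15%) and 3 of 19 near-absent genes (1.56%). The last were *Nlrc5*, *Isg15* and *Oasl2*. None was lower without overlap, compared with 1.56%, 2.44% and 2.32% of all genes in these classes. *Isg15*, a ubiquitin-like modifier, had 0.0129, 0.0118, 0 and 0 in *Fire*+/+ and 0.0180, 0.0136, 0.0701 and 0.208 in *Fire*Δ/Δ libraries. *Oasl2*, of the oligoadenylate synthetase-like family, had 0.00430 to 0.0178 against 0.0204 to 0.183. In both, the cortex of *Fire*Δ/Δ mouse 6 was highest by far. For *Nlrc5*, *Isg15* and *Oasl2* the lowest *Fire*Δ/Δ library was the cortex of mouse 3. It held 1 UMI of *Nlrc5*, 2 of *Isg15* in 1 cell and 3 of *Oasl2* in 2 cells. The hippocampus of *Fire*+/+ mouse 1 held 3 UMIs of *Isg15*. The lack of overlap of these near-absent genes could therefore turn on single UMIs, and no genotype difference is concluded from it.

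Of the other pathway genes, none of the well detected ones in 5 lists (nucleic acid sensors, further interferon-stimulated genes, further class I genes and chaperones, standard proteasome, MHC class II) passed the adjusted limma test in either direction. Differences were above 0 for 10 of 12 standard proteasome genes, with a median of 0.030. The largest of each list were those of the proteasome subunit *Psmb5* (0.059), the chaperone *Pdia3* (0.078), the sensor kinase *Tbk1* (0.0044) and the RNA-editing enzyme *Adar* (0.0023), and no MHC class II gene was well detected. *Socs3*, which encodes a feedback inhibitor of cytokine receptor signalling, was sparse and untested, and separated the genotypes most widely. It stood at 0.00859, 0.0118, 0.0359 and 0.0392 in *Fire*+/+ and at 2.83, 1.17, 1.14 and 0.449 in *Fire*Δ/Δ libraries.

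The authors sorted the oligodendrocytes into 4 clusters, Oligo1 to Oligo4, and Oligo1 held 859, 147, 448 and 98 cells of the *Fire*Δ/Δ libraries but only 6 *Fire*+/+ cells. The second comparison therefore set the genotypes side by side over Oligo2 to Oligo4 alone. Of the 15 genes, limma called 0, when 2 of 9232 genes passed (0.0217%), and 2 had an unadjusted p under 0.05, again *H2-D1* and *Ifi27*, beside 97 genes in all (1.05%). edgeR called 0 (3 of all genes, 0.0325%) and DESeq2 1, *H2-D1* (15 of all genes, 0.162%). The difference of *H2-D1* was 0.069 (SE 0.013, adjusted p = 1.00 in limma, unadjusted 0.00167), and that of *Ifi27* 0.12 (SE 0.046, adjusted p = 1.00, unadjusted 0.0400). Fits without 1 mouse again left a lone mouse in its genotype, so no p-value of *H2-D1* is given for them.

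The clusters differed in these genes, which is described here without a test because the clusters were made from the same values. *H2-D1* had a level of 3.16, 6.30, 9.25 and 9.81 in the Oligo1 cells of the *Fire*Δ/Δ libraries, and of 3.64, 4.47, 4.86 and 5.29 in Oligo2. In Oligo3, the largest cluster, it was 1.75, 0.911, 1.99 and 2.49. In *Fire*+/+ libraries it was 0.576, 1.01, 3.11 and 1.34 in Oligo2 and 0.670, 0.947, 1.40 and 0.712 in Oligo3. Oligo2 was thus above Oligo3 in 7 of the 8 libraries, the exception being the hippocampus of *Fire*+/+ mouse 1, and the *Fire*Δ/Δ library was above its *Fire*+/+ partner in Oligo2 in every batch. In *Fire*Δ/Δ libraries a UMI of *H2-D1* was found in 17.5% to 20.4% of Oligo1 cells and in 11.2% to 22.5% of Oligo2 cells. The share was 5.96% to 8.28% in Oligo3 and 5.60% to 12.4% in Oligo4.

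*B2m* had 1.83, 5.23, 5.92 and 6.82 in Oligo1 and 1.52, 1.45, 3.49 and 2.69 in Oligo3 of the *Fire*Δ/Δ libraries. The hippocampus of mouse 3, with the most Oligo1 cells, had the lowest Oligo1 level for *B2m*, *H2-D1*, *H2-K1* and *H2-T23* alike. *H2-K1* stood at 0.202 there and at 2.15, 0.814 and 2.17 in the other Oligo1 groups, and *H2-T23* at 0.0899 and at 1.61, 0.337 and 2.02. In both tissues mouse 6 had more *H2-D1* and *B2m* in Oligo1 than mouse 3, but in its cortex 1 cell, described below, held much of this. Without that cell the Oligo1 levels there were 6.82 for *H2-D1*, 3.71 for *B2m*, which is below the 5.23 of mouse 3, 1.14 for *H2-K1* and 0 for *H2-T23*.

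*Ifi27* had 13.2, 16.8, 16.5 and 17.2 in Oligo1 and 9.10, 9.35, 8.45 and 10.6 in Oligo3 of the *Fire*Δ/Δ libraries, beside 6.82 to 9.87 in Oligo3 of *Fire*+/+ libraries. In Oligo2 it was 12.5 to 15.2 in *Fire*Δ/Δ and 7.74 to 10.5 in *Fire*+/+, so the gap between genotypes was wider there than in Oligo3. In *Fire*Δ/Δ libraries the share of cells with an *Ifi27* UMI was 68.4%, 74.5%, 68.7% and 79.2% in Oligo4. In Oligo1 it was 62.4%, 75.5%, 68.5% and 82.7%, so a high share was not particular to Oligo1. The genotype difference of *Ifi27* in mean log2 value was 0.24 in Oligo4 alone and 0.22 in Oligo2 alone. *Irf9* had 0.753, 0.635, 0.933 and 1.35 in Oligo1 and 0.125 to 0.401 in Oligo3 of *Fire*Δ/Δ libraries. *Stat2* in Oligo1 was 2.56 to 3.17, and *Xaf1* 9.63, 11.04, 6.93 and 5.77. *Socs3* lay at 2.62 to 7.65 in Oligo1 and at 0.0933 to 0.260 in Oligo3 of the same libraries.

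*Ifit2* and *Ifnar2* had another pattern. *Ifit2* was highest in Oligo2 in all 8 libraries, at 1.47 to 2.51 in *Fire*+/+ and 1.81 to 2.72 in *Fire*Δ/Δ, against 0.530 to 0.724 in Oligo3 over all libraries, and at most 0.223 in Oligo4. In Oligo1 it was 0.640, 0.586, 0.576 and 1.27. *Ifnar2* was higher in Oligo2 than in Oligo3 in all 8 libraries, at 5.44 to 6.97 against 3.77 to 5.10. These differences between clusters were present in both genotypes.

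**Figure D4:**
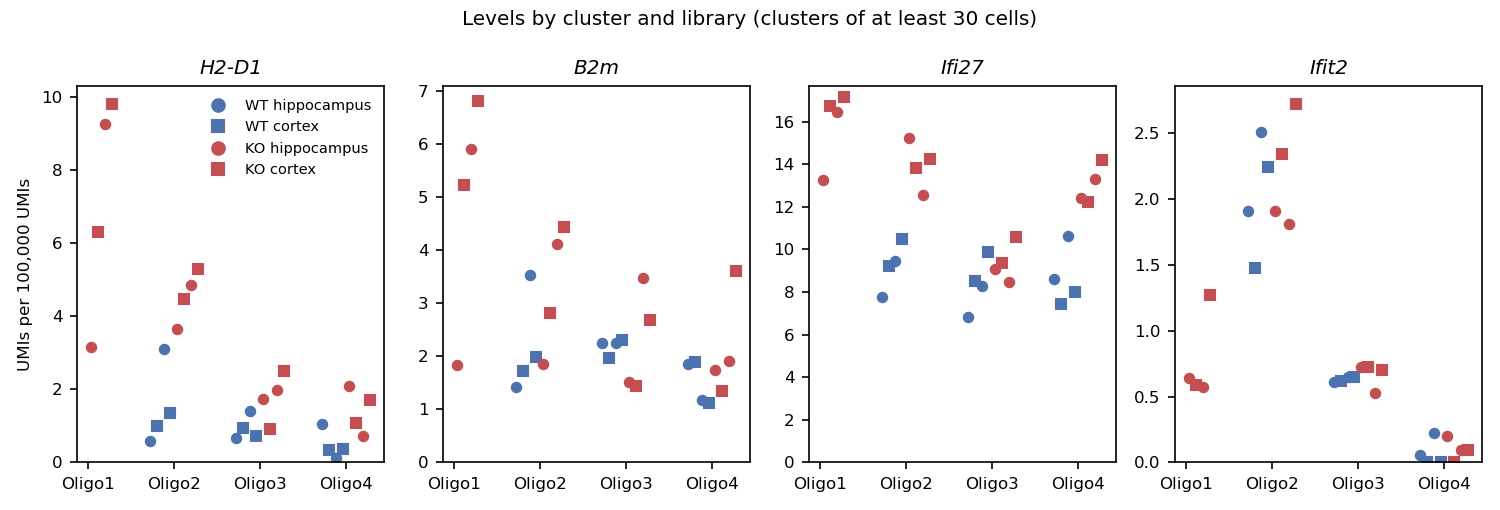
Levels of 4 genes (UMIs per 100000 UMIs, y axis from 0) by cluster and library, for clusters of at least 30 cells, with *Fire*+/+ (WT) in blue, *Fire*Δ/Δ (KO) in red, circles for hippocampus and squares for cortex, and mice 1, 4, 3 and 6 from left to right within a cluster. *H2-D1* is highest in Oligo1 and Oligo2 of *Fire*Δ/Δ libraries, and *Ifit2* in Oligo2 of both genotypes.

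Over the 15 well detected genes, Oligo1 was above Oligo2 to Oligo4 of the same library in mean log2 value in all 4 *Fire*Δ/Δ libraries for 8 genes and below in all 4 for 1, *Ifit2*, whose level was nevertheless 1.02 times as high in the cortex of mouse 6. Of all 9257 well detected genes, 19.0% were above and 16.3% below in all 4. The largest mean differences in log2 value were those of *Ifi27* (0.24), *H2-D1* (0.16), *Xaf1* (0.12), *B2m* (0.072) and *Stat2* (0.057). *Irf3*, *Tapbp*, *Psmb10*, *Psme1*, *Ifnar1* and *Ifngr2* changed direction between libraries.

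Class I genes were more abundant in cells that held *H2-D1*. In cells with an *H2-D1* UMI the *B2m* level was 3.95, 4.28, 7.76 and 2.85 times that of the other cells in *Fire*+/+ libraries and 5.39, 15.5, 9.75 and 10.7 times in *Fire*Δ/Δ libraries. For *H2-K1* the ratio was 4.36 to 16.2 and 9.59 to 44.5. *Ifnar2* did not share this pattern, with a ratio of 0.940 to 1.14, and *Tapbp* had one of 0.654 to 1.998. Cells with an *H2-D1* UMI were also somewhat deeper, with a median of 9589.5 against 9366 UMIs in the hippocampus of *Fire*+/+ mouse 1 and 14334 against 13653.5 in the cortex of *Fire*Δ/Δ mouse 3. Cells of 1 library are not independent replicates, and no test was made.

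The 22 transcription regulators and effectors that were not well detected were then summed. Their summed level was 1.35, 1.34, 1.49 and 1.79 in *Fire*+/+ libraries and 1.78, 1.68, 2.59 and 4.29 in *Fire*Δ/Δ libraries. The cortex of *Fire*Δ/Δ mouse 6 stood apart. It belongs to batch 6, which the authors describe as of poorer quality, and whose libraries had the highest median mitochondrial shares, 6.29% and 6.23% of UMIs. In it, 2 of its 904 cells held 123 and 121 of its 516 UMIs of these genes (47.3%). Without the 2 richest cells of every library, the summed level was 1.23, 1.24, 1.33 and 1.62 in *Fire*+/+ and 1.72, 1.28, 2.33 and 2.27 in *Fire*Δ/Δ libraries. With and without these cells, the genotypes overlapped across batches, and the *Fire*Δ/Δ library was the higher within all 4. The cells removed were chosen by their UMIs of these same genes, so the levels without them depend on that choice.

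These 2 cells, an Oligo2 and an Oligo1 cell, had UMIs of 19 and 16 of the 22 genes. They held 21 and 11 UMIs of *Ifit1*, 14 and 29 of *Ifit3*, 12 and 11 of *Isg15*, 7 and 16 of *Irf7* and 25 and 20 of *Bst2*, the gene of tetherin, which holds budding virus at the membrane. They also held 7 and 41 UMIs of *H2-D1* and 12 and 42 of *B2m*. They held 35 and 22 UMIs of the oligodendrocyte marker *Mog*, and 0 UMIs of the listed microglial, perivascular macrophage, T cell, endothelial, pericyte and progenitor markers, with 4 and 3 UMIs of astrocyte, 1 and 0 of neuron and 0 and 1 of erythrocyte markers. The Oligo1 cell held 203 UMIs of the chemokine gene *Ccl5* and the other cell 0. In that library 43 of 46 UMIs of *Ifit3*, 23 of 25 of *Isg15*, 45 of 65 of *Bst2* and 19 of 19 of *Psmb8* were in these cells. The Oligo1 cell also held all 27 of the *H2-T23* UMIs and 41 of the 131 *H2-D1* UMIs of the Oligo1 cells there.

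**Figure D5:**
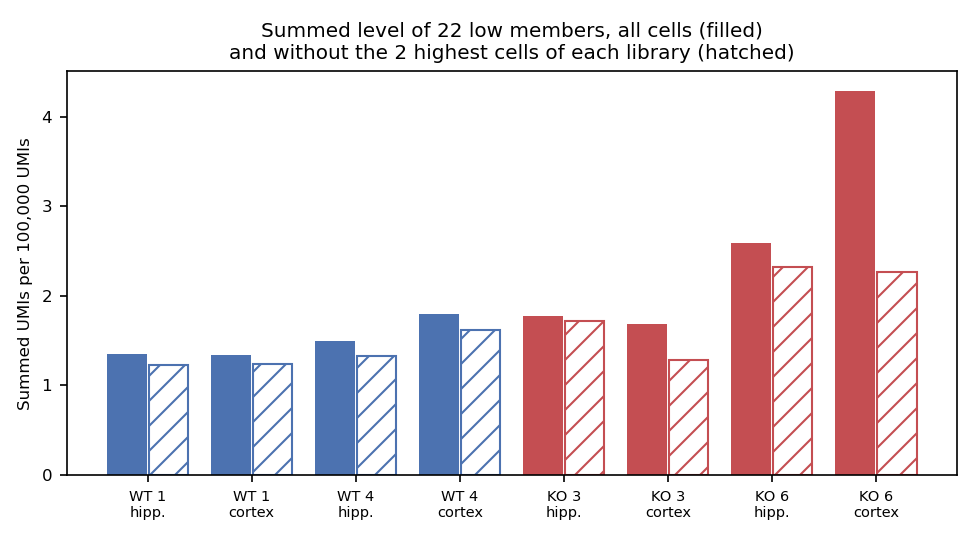
Summed level of the 22 transcription regulators and effectors that were not well detected (UMIs per 100000 UMIs, y axis from 0) in each library, over all cells (filled bars) and without the 2 richest cells of the library (hatched bars), with *Fire*+/+ (WT) in blue and *Fire*Δ/Δ (KO) in red. In the cortex of *Fire*Δ/Δ mouse 6 the bar falls from 4.29 to 2.27 once these cells are removed.

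Cells with UMIs of 4 or more of the 22 genes, a limit set after the values were seen, numbered 15 of 5885 in *Fire*+/+ and 27 of 6696 in *Fire*Δ/Δ libraries, and 11 of the 27 were among 1552 Oligo1 cells. None of the 11 came from the hippocampus of mouse 3, which held 859 of the Oligo1 cells. Such cells occurred in all 8 libraries, 3 to 5 in each of the *Fire*+/+ and 5 to 11 in each of the *Fire*Δ/Δ libraries. When they were removed, *H2-D1* was 0.672 to 1.47 in *Fire*+/+ and 2.37 to 3.26 in *Fire*Δ/Δ libraries, a 2.99-fold difference of means. *H2-K1* changed from a 2.46- to a 1.97-fold difference and *H2-T23* from 3.02- to 1.74-fold, both still without overlap. The ratio of *Ifi27* was 1.39 with and without these cells. *Ifit2* in the cortex of *Fire*Δ/Δ mouse 6 fell from 1.25 to 0.996. Since these cells were chosen for their UMIs of the near-absent and sparse regulators and effectors, levels of those genes without them depend on that choice. No conclusion is drawn from such levels.

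The third comparison set hippocampus against cortex, over both genotypes. None of the 15 genes passed the adjusted test, when 0 of 9257 genes did (0%), and none had an unadjusted p under 0.05, compared with 451 of all genes (4.87%). edgeR and DESeq2 also called 0 of the 15, with 0 and 9 of all genes (0% and 0.0972%). The largest differences in mean log2 value, hippocampus minus cortex, were -0.066 for *Ifi27*, -0.036 for *Xaf1*, -0.028 for *Irf3*, 0.026 for *Psme1* and 0.022 for *Psme2*. With both tissues of a mouse paired as a block, 58 of 9257 genes passed (0.627%) and 0 of the 15, as did 71 genes (0.767%) and 0 of the 15 in edgeR. The adjusted limma p in the block was 0.0983 for *Ifi27*, 0.147 for *Psme1*, 0.171 for *Irf3* and 0.239 for *Ifit2*. *H2-D1* differed by 0.0040, with a 95% interval of -0.026 to 0.033.

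The fourth comparison asked whether the genotype difference was of another size in hippocampus than in cortex. No gene of the 15 passed limma's adjusted test of this interaction, in which 0 of 9257 genes passed (0%), and none had an unadjusted p under 0.05, compared with 561 of all genes (6.06%). For *H2-D1* the interaction was 0.0023 (95% interval -0.059 to 0.063), and for *Ifi27* 0.040 (-0.034 to 0.11). The genotype differences over both tissues, 0.097 and 0.16, lay outside these intervals.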

How the data were processed

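The authors aligned reads to mm10 with Cell Ranger 5.0.0, kept mature oligodendrocytes with at least 5000 UMIs and at most 10% mitochondrial UMIs, and deposited log2 of UMI counts over scran size factors, plus 1, for 18833 genes and 12581 cells, with each cell's size factor (a ratio of its depth to a common depth, by the authors). Clusters came from the authors' deposited cell table. Sorting gates excluded doublets, and no doublet caller was run here. UMIs were recovered from the log2 values and size factors, and all 42420937 values above 0 were whole within 0.001. The genes and lists were chosen with earlier results of these data known. Mean log2 values per mouse, with both tissues weighted equally, were compared with limma 3.58.1 (R 4.3.3, trend) over well detected genes. Tissues were compared across the 8 libraries, adjusting for genotype. Benjamini-Hochberg adjustment ran over all genes tested, at 0.05. edgeR 4.0.16 and DESeq2 1.42.0 on UMI sums, other scales and filters, blocks, single tissues or clusters, and each mouse left out were alternatives. Tests were checked on simulated data. Both libraries with 1 number in the labels come from 1 mouse, and across genes their deviations from the genotype mean had a correlation of 0.843 in *Fire*+/+ and 0.853 in *Fire*Δ/Δ mice. Genes named with values are the 43 members and listed pathway genes, *Socs3*, *Ccl5* and *H2-Q4* being chosen after their values were seen. Gene positions are from GENCODE for GRCm38. Some listed genes are not reported here.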

Additional observations from a re-analysis of the deposited data

Results flagged for a closer look

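Of 86 checks for a library far from the other 3 of its genotype, 6 exceeded Dixon's critical value. For independent values chance gives about 1 in 20. The 4 libraries of a genotype come from 2 mice, so that rate need not hold here. In *Fire*+/+ libraries these were *Irf3* in the cortex of mouse 4, with a level of 2.80 UMIs per 100000, *Tapbp* in the same library, with 1.02, and *Ifit1* in the hippocampus of mouse 4, with 0.0646. In *Fire*Δ/Δ libraries they were *Ifi27* in the cortex of mouse 6, with 12.6, *Oasl2* in the same library, with 0.183, and *Trim25* in the cortex of mouse 3, with 0.0746. The value of *Ifi27* stood out because the other 3 *Fire*Δ/Δ libraries were nearly equal, at 11.7 to 11.8. Of the 22 *Oasl2* UMIs of that cortex library, 17 came from the 2 cells rich in interferon-stimulated transcripts. Of the 6 values, 4 were in libraries of batch 6, which had the highest median mitochondrial shares.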

How the results depend on the processing

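The count of the 15 well detected genes called between genotypes over all oligodendrocytes was 0 and became 1, *H2-D1* each time, with the age block, with DESeq2 and without any 1 mouse (range 1 to 1). Over Oligo2 to Oligo4 it became 1 with DESeq2 and was 0 to 1 without 1 mouse. The counts of all genes called also varied, over all oligodendrocytes from 5 to 0 without a filter or with mouse as a random block, 3 after centring or in either single tissue, 8 with edgeR, 9 on other scales, 28 with the age block, 49 with DESeq2 and 52 to 77 without 1 mouse. Over Oligo2 to Oligo4 they were 2, 15 with DESeq2 and 21 to 51 without 1 mouse, and between tissues 0, 9 with DESeq2, 58 with the replicate block in limma and 71 with the replicate block in edgeR. Genotype fits without 1 mouse left a lone mouse in its genotype, assumed to vary like the others, and no conclusion is drawn from their counts. The block for the shared mouse changed no call among the 15 genes. Thinned to 5000 UMIs per cell, 4 genes rather than 9 were sparse. The median difference of Oligo1 was 0.021, and 0.18 as a log2 ratio of levels, 0.027 against Oligo3 alone and 0.018 to 0.031 without 1 mouse. Without the cortex library of *Fire*Δ/Δ mouse 6, an alternative chosen after seeing the data, 0 of the 15 genes were called in either genotype comparison. Of 340 alternative values of single genes, 325 kept their direction and 15 reversed, none of which was past the threshold. Over all oligodendrocytes, the range without 1 mouse was -0.029 (without *Fire*Δ/Δ mouse 6) to 0.068 for *B2m*, -0.077 (without *Fire*+/+ mouse 4) to 0.15 for *Xaf1*, which was also -0.041 without *Fire*Δ/Δ mouse 3, -0.059 to 0.012 (without *Fire*+/+ mouse 1) for *Psme1*, and -0.0072 (without *Fire*+/+ mouse 4) to 0.049 for *Psme2*, which was also -0.0034 without *Fire*Δ/Δ mouse 3. Over Oligo2 to Oligo4, it was -0.040 (without *Fire*Δ/Δ mouse 6) to 0.055 for *B2m*, also -0.0017 without *Fire*+/+ mouse 1, -0.061 to 0.0094 (without *Fire*+/+ mouse 1) for *Psme1*, -0.0067 (without *Fire*+/+ mouse 4) to 0.050 for *Ifnar2*, also -0.0051 without *Fire*Δ/Δ mouse 3, and -0.0072 (without *Fire*Δ/Δ mouse 3) to 0.046 for *Stat2*. *B2m* was -0.011 in Oligo3 alone and *Ifnar2* -0.0048 in hippocampus alone. The level difference of *Ifit3* was -0.0055 without the cells rich in these transcripts, which were chosen for such genes. The causes of these changes were not tested. With 2 mice per genotype, and 28 of the 43 genes under the 5% limit, most of the pathway was not open to a test at this depth.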
